A study of Mus musculus with 11 samples.

Results

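The cytosolic ribosomal protein genes were followed in 11 ChIP-Seq libraries of histone variants in mouse cells. Members were the protein-coding genes on chromosomes 1 to 19 of the GENCODE annotation of mm9 whose symbol is Rpl or Rps followed by a number, with Rplp0, Rplp1, Rplp2 and Rpsa and without the Rps6k kinases. The rule took 134 of 21418 protein-coding genes. Of these, 72 encode core subunits (39 of the large subunit, 30 of the small subunit and 3 of the P-stalk), 7 are paralogs, 53 carry a "-ps" suffix and 2 have other symbols (Rps4y2 and Rps19bp1). All 53 "-ps" genes have a single merged exon and a median length of 483 bp, and their values are given apart from those of the core genes.

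Ribosomal proteins assemble with ribosomal RNA into the large subunit, which holds the peptidyl transferase center and the P-stalk, and the small subunit, which decodes the mRNA. Their genes are expressed in nearly every cell, tend to be short, start within a pyrimidine tract, and have spawned many intronless copies by reverse transcription of their mRNAs. H3.3 is a replacement H3 deposited outside replication, and MacroH2A2 is an H2A variant with a large C-terminal macro domain.

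ES cells were of the KH2 line, on a 129 X C57bl/6 background, with M2rtTA at ROSA26 and an HA-tagged H3.3 or MacroH2A2 (HA-Macro) transgene under TetO downstream of Col1a1. The tagged protein is therefore an additional copy switched on by doxycycline (Dox, 2 µg/ml). ES cells were grown on feeder MEFs and depleted of them by plating on gelatin before induction. Anti-HA libraries sampled the HA-H3.3 ES line 3 and 6 hours into induction, the HA-Macro ES line uninduced (no Dox) and at 3, 6 and 12 hours, and HA-Macro MEFs, embryonic fibroblasts from chimeric embryos that were selected with puromycin and used at passage 2, at the same times of induction. An antibody to MacroH2A2 itself was used in ES cells and in MEFs, each library combining 2 replicates, and the sources differ on these cells. The labels give untreated parental KH2 cells and wild type MEFs. The study instead describes such maps of HA-Macro ES cells and HA-Macro MEFs, each without Dox and after 12 hours of it. Tagged and untagged MacroH2A2 can therefore not be told apart in these libraries.

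Every condition has 1 library, so that no difference could be set against a spread between replicates and no test was made. The 95% intervals given are exact and cover counting error only. The other protein-coding genes used for comparison are 20513 genes outside the lists named here and outside the 1% of 100 kb tiles with the most signal without Dox. Values are interval midpoints within 600 bp of the transcription start site (TSS), as p.p.m. of the library. Levels per length are p.p.b. of the library per kb. Both are shares of a library, so that a lower value need not be a loss of the variant. The study expects early-filled sites to fall in share as tagged histone enters the rest of the genome. It also holds that its apparent promoter loss in MEFs is overestimated through normalization. Libraries held 6488112 to 20541627 intervals, nearly all of them 150 bp long for HA-Macro and 400 bp long for the remaining 4 libraries. The share of distinct intervals on chromosome Y divided the ES libraries. It was 0.112% in the HA-Macro ES library at 3 hours, 0.102% and 0.0673% for HA-H3.3 at 3 and 6 hours and 0.1% for anti-MacroH2A2 in ES cells. In the HA-Macro ES libraries without Dox and at 6 and 12 hours it was 0.0219% to 0.0244%, near the 0.0198% to 0.0226% of the HA-Macro MEF libraries, and it was 0.0423% for anti-MacroH2A2 in MEFs. What set these shares, and its part in the results, was not tested. Values of HA-Macro at 6 hours are given beside the pooled results that rest on the 3 hour library. By the study's description 1 location was kept at random for reads with several. Reads from coding exons of a core gene could then be placed on its copies and the reverse. Some copies differed between the file types. From 4 to 2 kb upstream of Rps19-ps1 and Rps19-ps2, the 4 libraries with 400 bp intervals held 0 midpoints. The HA-Macro libraries held 1 to 14 and 4 to 17 there. Other copies, such as Rpl36-ps3, held midpoints in every library. Repeated intervals made up 0.462% to 0.693% of those 4 libraries and 3.27% to 6% of the HA-Macro libraries. Whether all files kept such reads alike, and how far this touched the values, was not tested.

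The core genes lay on 18 chromosomes and had a median length of 3305 bp, from 849 to 42639 bp, against 15786 bp for the other protein-coding genes. Small nucleolar RNAs on the same strand, 56 in all, lay within 28 of them. Of the core genes, 14 had the start of another protein-coding gene within 1200 bp. The following sequences of mm9 run from 50 bases before the annotated start to the first 20 bases of the gene, and are shown because the levels of core promoters, paralogs and copies are compared throughout. Capitals mark the longest run of C and T between 20 bases before and 20 bases after the start. Rpl8 (chr15:76734451-76734520, plus strand) encodes a large subunit protein, and Rplp1 (chr9:61762326-61762395, minus strand) a P-stalk protein. Rpl3l (chr17:24864724-24864793, plus strand) is the paralog of Rpl3 known from striated muscle, and Rpl21-ps7 (chr17:83687836-83687905, plus strand) is an intronless copy.
Rpl8: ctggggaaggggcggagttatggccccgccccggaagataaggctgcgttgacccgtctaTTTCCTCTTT
Rplp1: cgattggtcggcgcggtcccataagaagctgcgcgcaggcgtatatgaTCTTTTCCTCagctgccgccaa
Rpl3l: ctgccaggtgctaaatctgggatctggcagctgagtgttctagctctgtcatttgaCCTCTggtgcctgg
Rpl21-ps7: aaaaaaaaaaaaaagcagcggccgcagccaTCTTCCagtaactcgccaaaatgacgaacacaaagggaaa

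The marked run of C and T was 10 bases long in Rpl8 and in Rplp1, and 5 and 6 bases in Rpl3l and Rpl21-ps7. That of Rpl8 reaches the last printed base and is 11 long in the window to 30 bases after the start. A run of at least 8 from 20 bases before to 30 after the start was found in 37.5% of the core genes, 32.1% of the "-ps" genes, 15.6% of the mitochondrial ribosomal protein genes, 47.4% of the other translation genes with a pyrimidine tract and 18.6% of all protein-coding genes. In the 300 bases from 250 before to 50 after the start, on either strand, CGGAAG was found in 58.3% of the core genes and 20.1% of all genes, and in 54.5% of the mitochondrial ribosomal protein genes, 42.1% of the other translation genes with a pyrimidine tract and 13.2% of the "-ps" genes. AAGATGGC was found in 6.94% of the core genes against 3.31% of all genes, and in 15.6%, 21.1% and 24.5% of these 3 lists. GGGCGG was found in 44.4% of the core genes against 43.7%, and TATAAA in 11.1% against 13.5%. The median number of CG dinucleotides was 19.5 in core promoters, 12 over all genes and 5 in the "-ps" genes. These matches describe the sequence only.

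HA-Macro was first followed at the core promoters in ES cells. Averaged over all 72 core genes, uninduced cells held 0.643 p.p.m., and induced cells 1.87, 0.992 and 0.628 p.p.m. after 3, 6 and 12 hours. The 3 hour library was the highest of the 4, and the 12 hour level lay at that without Dox. Over no Dox, the pooled log2 ratio of the 3 hour library was 1.54 (1.41 to 1.67). That of the 6 hour library was 0.63 (0.48 to 0.77) and that of the 12 hour library -0.03 (-0.19 to 0.12). The other protein-coding genes went from 0.602 p.p.m. without Dox to 0.992, 0.801 and 0.663. At 3 hours the core genes stood above the other genes, and at 12 hours slightly below them. Single core genes ranged from 0.747 to 3.68 p.p.m. at 3 hours and from 0.159 to 1.27 at 12 hours, so that the ranges overlapped. Calls of a 2-fold difference here and below use genes with at least 20 midpoints over both libraries and the ratio after adding 1 read to each library, whereas ratios of single genes are printed without the added read. At least 2-fold higher at 3 hours than without Dox were 59 of 91 members with enough midpoints, 52 of them core genes, against 40.4% of all genes. At 6 hours it was 23 of 74 members against 20.9%, and at 12 hours 4 of 53 against 11.1%, or 7 of 53 against 14.8% with no read added. Rps14 (1.52 p.p.m.) and Rpl21 (1.44) were among the highest without Dox.

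**Figure D1:**
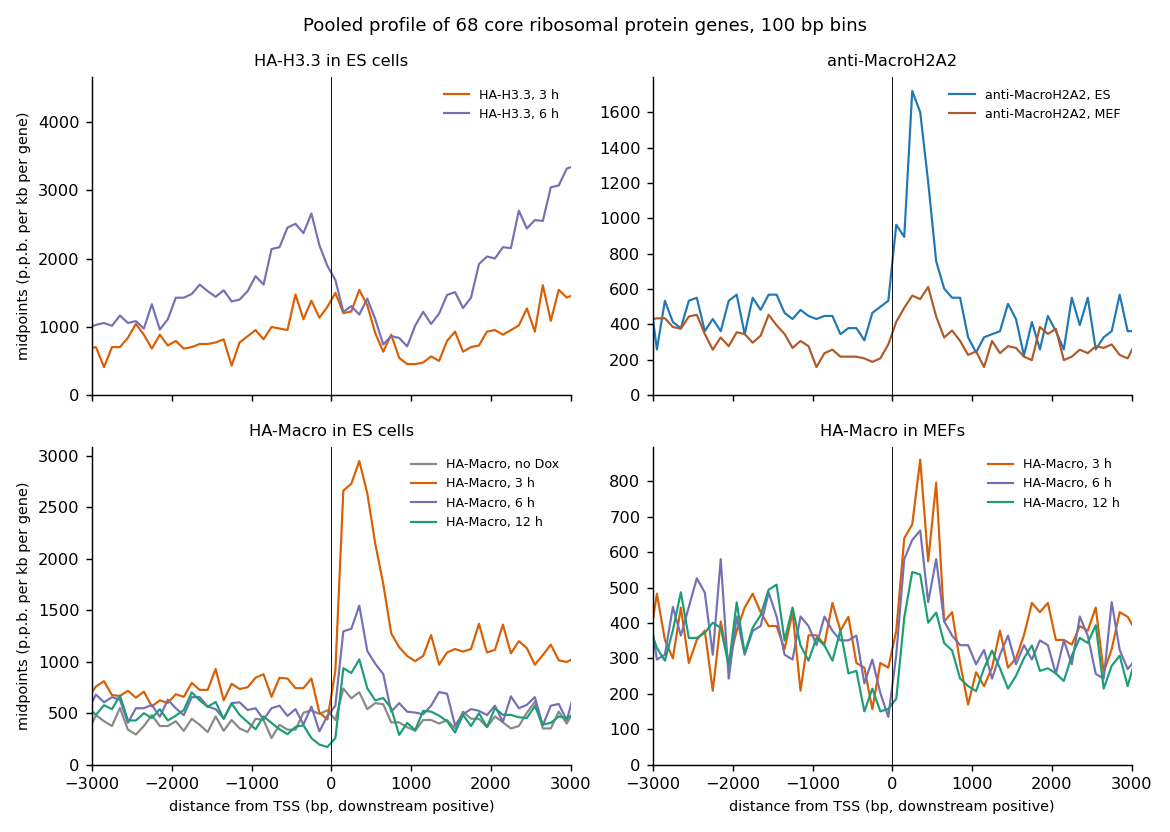
Pooled profiles around the TSS of the 68 core genes outside the tiles with the highest signal without Dox (x axis, distance in bp; y axis, midpoints, p.p.b. per kb and gene, 100 bp bins; y scales differ between panels). HA-Macro and anti-MacroH2A2 were highest downstream of the TSS, with 2949 and 1545 at 350 bp for HA-Macro in ES cells at 3 and 6 hours. Within 1 kb HA-H3.3 was highest at 350 bp after 3 hours, with 1542, and at -250 bp after 6 hours, with 2661.

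The signal was asymmetric. In HA-Macro ES cells at 3 hours the 100 bp bin with the most midpoints was centered 350 bp downstream of the TSS, and the lowest within 1 kb was centered at -50 bp. At 6 hours these bins were centered at 350 and -150 bp. Downstream of the TSS the core genes held 614 p.p.b. per kb without Dox, followed by 2394, 1164 and 765 after induction. Upstream they held 456, 714, 488 and 282. At 12 hours the downstream part was still above no Dox, by 0.32 in log2 (0.12 to 0.51), while the upstream part was below it, at -0.70 (-0.96 to -0.43).

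From 3 to 12 hours the level at core promoters, as a share of the library, was 2.97-fold lower. The pooled log2 ratio was -1.57 (-1.69 to -1.46) against -0.58 for the other genes. The level was lower at 72 of 72 core genes after adding 1 read to each library, against 70.5% of all genes. Of the 134 members, 105 had at least 20 midpoints over both libraries, and 63 of these were at least 2-fold lower, 58 of them core genes (of 71 core genes with enough midpoints). Over all genes with enough midpoints the share was 32.9%, against 81.7% of the core genes. The large and small subunit were close to each other, at -1.54 (-1.70 to -1.39) and -1.62 (-1.81 to -1.44). From 6 to 12 hours, without the 3 hour library, the core genes had a log2 ratio of -0.66 (-0.79 to -0.53) against -0.27 for the other genes, and 15 of 58 core genes with enough midpoints were at least 2-fold lower, against 9.83% of all genes.

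Rpsa, the laminin receptor homolog of the small subunit, was among the 3 members with the lowest ratio, with 0.878 p.p.m. without Dox and 2.24, 0.847 and 0.319 at 3, 6 and 12 hours. The log2 ratio of 12 over 3 hours was -2.81 (-4.35 to -1.56) on 39 and 6 midpoints. Rps19, the small subunit protein mutated in Diamond-Blackfan anemia, went from 2.59 to 0.791 and 0.372 p.p.m., a ratio of -2.80 (-4.19 to -1.64). Both were highest at 3 hours and lowest at 12 hours, where they lay below the library without Dox. That last comparison rests on 6 against 11 midpoints for Rpsa and 7 against 9 for Rps19, below the minimum for a call. Rpl8, a large subunit protein near the peptidyl transferase center, went from 2.18 to 1.36 and 0.319 p.p.m. (-2.78, -4.31 to -1.52). Rpl32, of the large subunit, had a ratio of -1.78 (-2.91 to -0.77), and of -0.88 (-2.09 to 0.27) for 12 over 6 hours.

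The P-stalk proteins, which recruit the translational GTPases, were not alike in value. Rplp1 had a log2 ratio of -2.07 (-3.32 to -0.99) and Rplp2 of -1.97 (-3.31 to -0.81), while Rplp0, the base of the stalk, had -0.57 (-1.50 to 0.34), from 1.49 p.p.m. at 3 hours to 0.904 and 1.01. The 3 intervals overlap. For 12 over 6 hours Rplp1 had -1.01 (-2.35 to 0.24) and Rplp2 -1.55 (-2.93 to -0.33).

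**Figure D2:**
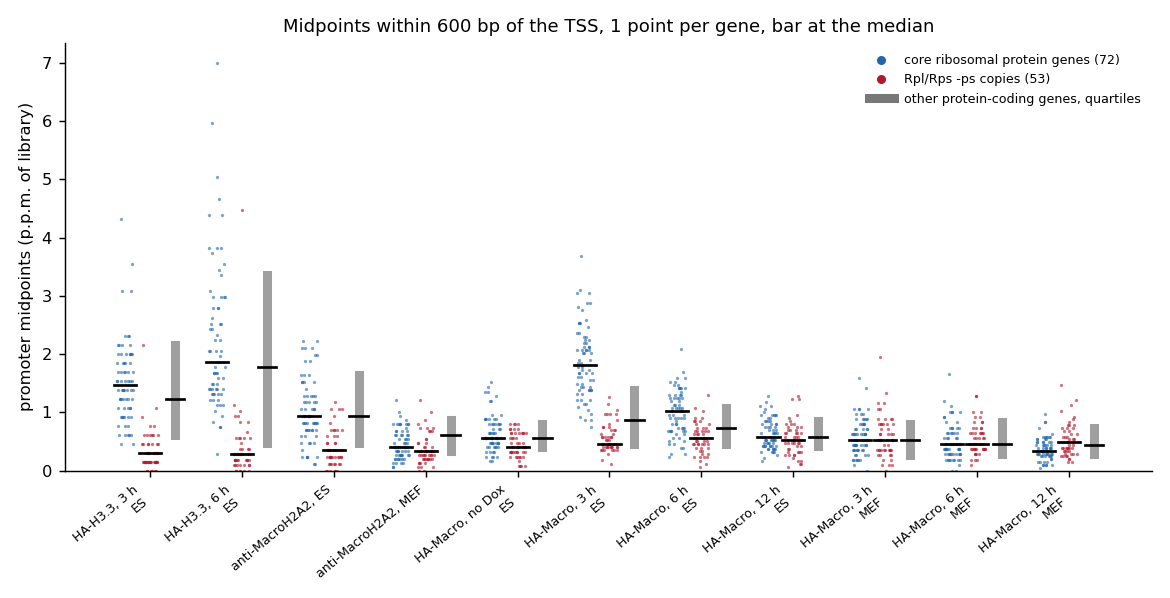
Promoter level of single genes in each library (y axis, midpoints within 600 bp of the TSS, p.p.m.). Blue points are the 72 core genes, red points the 53 "-ps" genes, black bars medians, and grey bars the quartiles of the other protein-coding genes. The core median was 1.81 in HA-Macro ES cells at 3 hours and 0.584 at 12 hours, and the "-ps" median 0.460 and 0.531.

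The 53 "-ps" genes held 0.446 p.p.m. of HA-Macro without Dox and 0.566, 0.559 and 0.545 at 3, 6 and 12 hours. With a median length of 483 bp, many of these genes lie wholly inside the window of 600 bp around the TSS, coding sequence included. Their pooled ratio of 12 over 3 hours was -0.05 (-0.23 to 0.12). Of the 53, 25 had enough midpoints, of which 2 were at least 2-fold lower and 1, Rpl21-ps13, at least 2-fold higher, with 6 midpoints at 3 hours and 24 at 12 hours (1.89, 0.56 to 3.47). Over all genes with enough midpoints 32.9% were lower and 2.67% higher. The next highest members, Rpl21-ps6 and Rpl21-ps7, both had 0.89, with intervals that include 0. Taken over all 134 members together, core genes and copies, the ratio was -1.13 (-1.22 to -1.04).

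The 7 paralogs had a pooled ratio of -0.58 (-0.95 to -0.20), with 2 of 7 at least 2-fold lower, against 32.9% of all genes and a pooled ratio of -0.58 for the other genes. Rpl36al, a copy of Rpl36a, went from 2.36 p.p.m. at 3 hours to 1.02 and 1.01. Rpl3l had 0.977, 0.791 and 1.06 p.p.m., a ratio of 0.12 (-0.89 to 1.14). Rpl39l and Rpl10l, paralogs known from testis, had 0.862 and 0.690 p.p.m. at 3 hours and 0.903 and 0.531 at 12 hours.

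The pooled ratios of other lists lay between those of the core genes and the other genes. The 77 genes of mitochondrial ribosomal proteins had a ratio of -1.10 (-1.22 to -0.99), the 19 other translation genes whose mRNAs start with a pyrimidine tract -1.39 (-1.61 to -1.17), and the 24 ribosome biogenesis genes -1.22 (-1.42 to -1.02). At least 2-fold lower were 39 of 68, 15 of 18 and 15 of 23 of their genes with enough midpoints, against 32.9% of all genes. From 6 to 12 hours the ratios were -0.42, -0.63 and -0.41 for these lists, -0.67 and -0.64 for the large and small subunit, 0.13 for the paralogs (-0.29 to 0.55) and -0.04 for the "-ps" genes.

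HA-Macro was also lower at 12 than at 3 hours across the gene. In the bodies of the 69 core genes longer than 1200 bp, from 600 bp downstream of the TSS to the annotated end, HA-Macro in ES cells was 408 p.p.b. per kb without Dox and 1040, 549 and 442 at 3, 6 and 12 hours. The log2 ratio of 12 over 3 hours was -1.24 (-1.31 to -1.17), and 54 of 67 core genes with enough midpoints were at least 2-fold lower, against 16.8% of all genes. Within 600 bp of the annotated end (TES) the levels were 437, 1072, 540 and 412, with a ratio of -1.38 (-1.52 to -1.25) and 46 of 62 core genes at least 2-fold lower, against 22.8% of all genes. From 6 to 12 hours the ratios of the core genes were -0.31 (-0.39 to -0.23) in the body and -0.39 (-0.54 to -0.24) at the end, and 3 of 63 and 3 of 34 core genes were at least 2-fold lower, against 0.34% and 5.26% of all genes, most of which are longer.

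**Figure D3:**
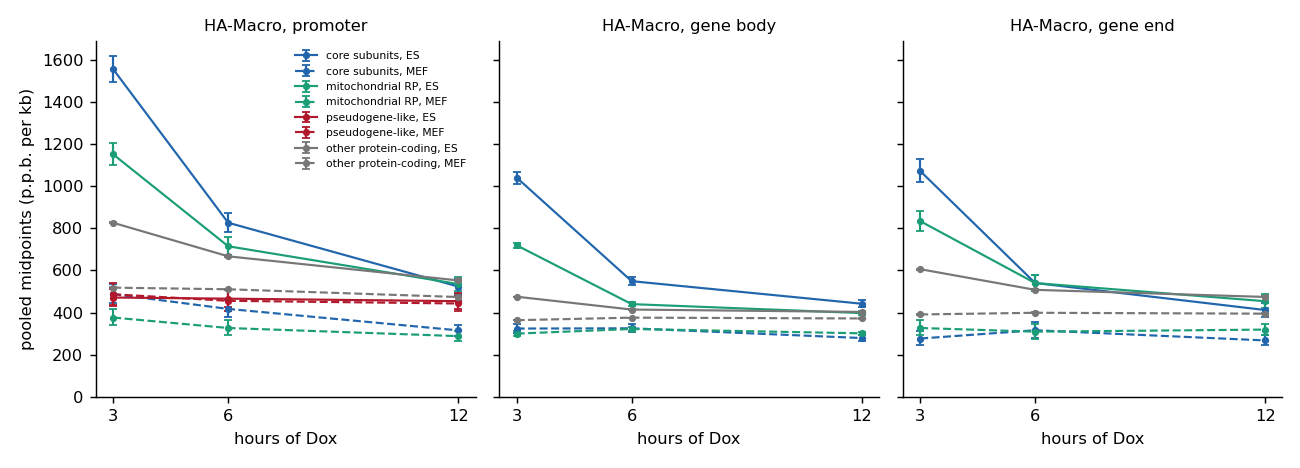
Pooled HA-Macro level (y axis, p.p.b. per kb, bars 95% counting intervals) against hours of Dox (x axis) at the promoter, in the gene body and at the gene end, solid lines for ES cells and dashed lines for MEFs. Core genes in ES cells went from 1555 at 3 hours to 523 at 12 hours at the promoter, and the "-ps" genes, drawn for the promoter, from 471 to 454.

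In MEFs the core promoters held less HA-Macro, as a share of the library, than in ES cells at each hour. The mean levels were 0.585, 0.501 and 0.379 p.p.m. at 3, 6 and 12 hours, against 0.622, 0.613 and 0.569 for the other genes. The libraries hold no MEFs without Dox, and each of these core levels lay below that of uninduced ES cells. How much of the signal in MEFs is background was not tested. The log2 ratios of MEFs over ES cells were -1.67 (-1.82 to -1.53), -0.99 (-1.15 to -0.82) and -0.73 (-0.89 to -0.58) at 3, 6 and 12 hours, against -0.67, -0.39 and -0.22 for the other genes. At least 2-fold lower in MEFs were 55 of 68, 20 of 48 and 13 of 32 core genes with enough midpoints, against 47.4%, 26.2% and 19% of all genes.

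From 3 to 12 hours in MEFs the log2 ratio of the core promoters was -0.63 (-0.81 to -0.45) against -0.13 for the other genes, and it was below 0 at 60 of 72 core genes after adding 1 read to each library, against 63.5% of all genes (58 of 72 against 57.2% with no read added). Only 34 members had at least 20 midpoints over both libraries. One of them was at least 2-fold lower, Rpl10a, against 4.62% of all genes, and that count is near the background. Rpl10a, of the large subunit, went from 1.42 p.p.m. to 1.10 and 0.487, a ratio of -1.54 (-2.85 to -0.32). Rpl5, which binds 5S ribosomal RNA, was among the next lowest, at -0.99 (-2.31 to 0.32). The highest ratios were those of the copies Rps13-ps1 (1.19, -0.13 to 2.77), Rpl15-ps2 (1.13, -0.50 to 3.17) and Rpl21-ps7 (0.80, -0.58 to 2.41). In the bodies the core ratio was -0.22 (-0.33 to -0.10), and at the ends -0.05 (-0.27 to 0.18). These body and end ratios are not set against those of the other genes here.

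The signal of the antibody to MacroH2A2 was lower at these promoters in MEFs than in ES cells. The core genes held 1.04 p.p.m. in ES cells and 0.463 in MEFs, a log2 ratio of -1.16 (-1.33 to -0.99) against -0.75 for the other genes. Relative to the level from 4 to 2 kb upstream, the core promoters stood at 0.75 in log2 in ES cells and -0.01 in MEFs, against 1.00 and 0.39 for the other genes. Of the 134 members, 28 had enough midpoints and 17 of these were at least 2-fold lower in MEFs, against 44.8% of all genes. Among core genes alone it was 14 of 20.

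The lowest ratios were those of Rplp1, with 1.87 p.p.m. in ES cells and 0.403 in MEFs (-2.22, -3.86 to -0.79), of Rpl12, near the base of the P-stalk, with 1.64 and 0.470 (-1.80, -3.35 to -0.40), and of Rps14, of the small subunit, with 1.99 and 0.604 (-1.72, -3.07 to -0.47). Rpl12 lay in a tile with high signal without Dox. The highest were Rpl10l, at 1.76 and 2.22 p.p.m. (0.34, -0.59 to 1.32), Rps4y2 (0.28, -0.94 to 1.60) and, with equal counts, Rpl3l and Rpl36-ps3 (each 0.10, -1.22 to 1.55). None of these 4 is a core gene, and each interval includes 0. The study names Rpl8 and Rpl32 among promoters depleted of Macro in MEFs. Here Rpl8 had 11 midpoints in ES cells and 12 in MEFs (-0.68, -1.98 to 0.65). Rpl32 had 8 and 6 (-1.22, -3.02 to 0.50), below the minimum for a call, and neither interval excludes 0. In the "-ps" genes the pooled ratio was -0.06 (-0.33 to 0.22). In core bodies it was -0.52 (-0.64 to -0.39), with 7 of 37 core genes at least 2-fold lower, against 7.75% of all genes.

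HA-H3.3 gave another arrangement on the same genes. The core promoters held 1.54 p.p.m. at 3 hours and 2.26 at 6 hours, close to the other genes at 1.48 and 2.24. The log2 ratio of 6 over 3 hours was 0.55 (0.42 to 0.68) against 0.60, and 10 of 70 members with enough midpoints were at least 2-fold higher, against 21.9% of all genes. With no read added it was 16 of 70 members, or 22.9%, against 26.9%. The parts of the promoter differed. Upstream of the TSS the level went from 1281 to 2418 p.p.b. per kb, a ratio of 0.92 (0.74 to 1.09), and downstream from 1283 to 1339, a ratio of 0.06 (-0.13 to 0.25). In the other genes these ratios were 0.69 and 0.52.

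Among single genes, Rpl37a, a zinc-binding large subunit protein, had the highest ratio, from 0.617 to 3.08 p.p.m. on 4 and 33 midpoints (2.32, 0.83 to 4.28). Rpl18 went from 2.00 to 5.97 p.p.m. (1.57, 0.70 to 2.56) and Rplp1 from 1.70 to 5.04 (1.57, 0.62 to 2.66). Rps14 was lower at 6 hours, at 1.12 p.p.m. against 2.31, with an interval that includes 0 (-1.05, -2.27 to 0.15). Rpl27 and Rps12 followed at -0.73 each. Among the highest levels at 3 hours were those of Rps10 (4.32 p.p.m.), Rps21 (3.55), Rpl30 (3.08) and Rpl3l (2.62). The level of Rpl3l was not particular to its promoter. At 3 hours 29 HA-H3.3 midpoints lay from 4 to 2 kb upstream of it, against 17 in the shorter window at the TSS. The value of Rps10 depended on the annotated start: at the start of its transcript 001, 1353 bp away, it was 2.00.

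At 3 hours HA-H3.3 was lower than HA-Macro at the core promoters, with a log2 ratio of -0.28 (-0.40 to -0.16), where the other genes had 0.58. Of 82 members with enough midpoints 7 were at least 2-fold lower and 4 higher, against 2.38% and 30.1% of all genes. With no read added they were 12 and 3, against 3.56% and 29%. With the 6 hour libraries the core ratio had the opposite sign, 1.18 (1.08 to 1.29) against 1.48 for the other genes, and 44 of 86 members were at least 2-fold higher, against 69.8%. Rps10 (1.84, 0.97 to 2.73), Rpl30 (1.75, 0.72 to 2.79) and Rpl3l (1.42, 0.36 to 2.48) had the most HA-H3.3 relative to HA-Macro at 3 hours. Among those with the least were the copy Rps26-ps1 (-3.04, -8.40 to -0.41), on 1 HA-H3.3 and 22 HA-Macro midpoints, and Rps28 (-1.69, -4.06 to 0.01), on 3 and 26. The place of Rps10 depended on the annotated start: at that of its transcript 001 the ratio was 0.27 (-0.80 to 1.26). The interval lengths of the HA-H3.3 and HA-Macro libraries differ, and over all members the 3 hour ratio was -0.29 by midpoints and by coverage alike. These file types also differed at some copies, as described above. The core ratio of -0.28 leaves the copies out, and the part of that difference in the ratios was not tested.

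**Figure D4:**
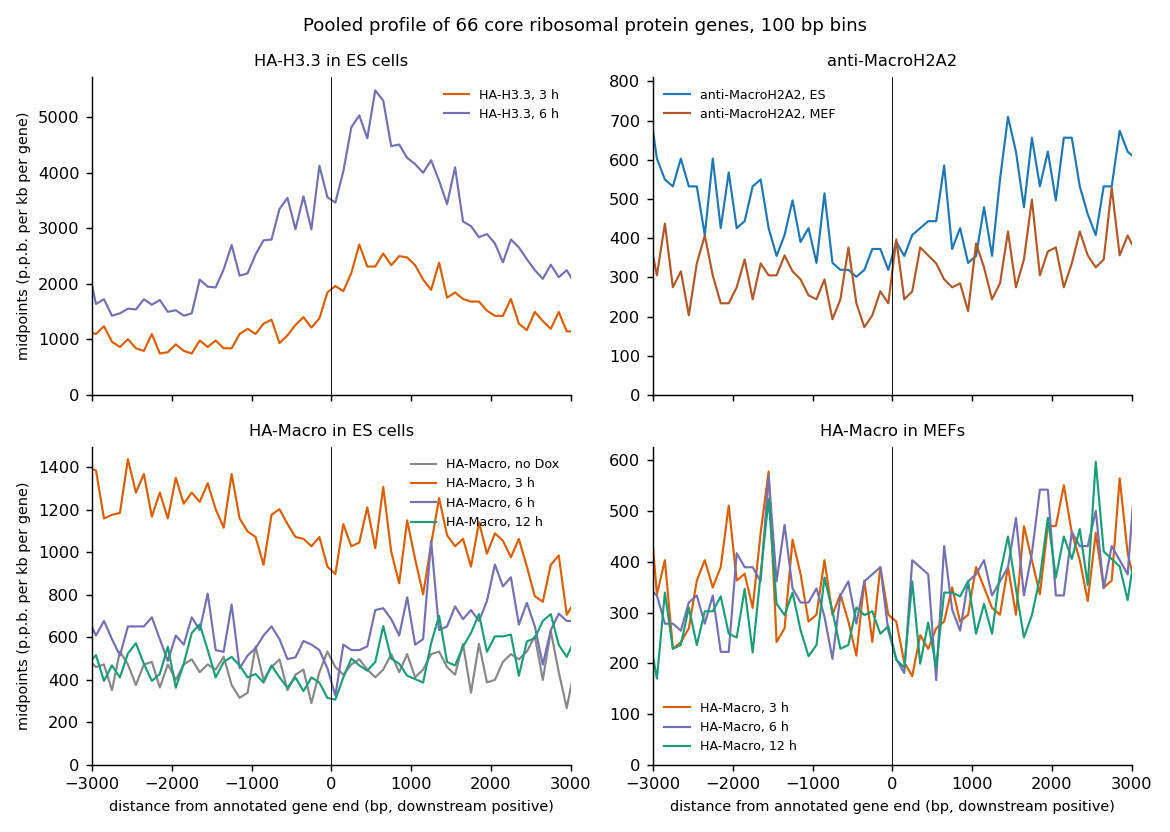
Pooled profiles around the annotated end of 66 core genes (x axis, distance in bp; y axis, midpoints, p.p.b. per kb and gene, 100 bp bins; separate y scales). HA-H3.3 was highest downstream of the end, with 2710 at 350 bp after 3 hours and 5484 at 550 bp after 6 hours, within 2 kb. The highest HA-Macro bins in ES cells were at -1250 bp after 3 hours, with 1367, and at 1250 bp after 6 hours, with 1052.

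The gene end was where HA-H3.3 was most abundant on the core genes. Their ends held 1844 p.p.b. per kb at 3 hours and 4102 at 6 hours, against 643 and 813 for the other genes. The log2 ratio of 6 over 3 hours was 1.15 (1.05 to 1.26) against 0.34, and 40 of 64 core genes with enough midpoints were at least 2-fold higher, against 23.8% of all genes. Core bodies went from 904 to 1883, a ratio of 1.06 (0.98 to 1.14) against 0.09. The core ends of anti-MacroH2A2 held 373 in ES cells and 293 in MEFs. Over HA-Macro at 6 hours, HA-H3.3 at core ends was 7.59-fold higher (2.92 in log2, 2.81 to 3.04), and 64 of 65 core genes were at least 2-fold higher, against 41.7% of all genes. That HA-Macro level lay nearer to the level without Dox than to the one at 3 hours, as given above. At 3 hours HA-H3.3 and HA-Macro at core ends lay closer to each other.

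Per length, the ends of the core genes held more HA-H3.3 than their promoters, by 0.54 in log2 at 3 hours (0.39 to 0.68) and 1.13 at 6 hours (1.05 to 1.22), with midpoints pooled. The median over the core genes after adding 1 read was lower at 3 hours, at 0.29, and was 1.17 at 6 hours. In the other genes the ends held less than the promoters, with -1.04 and -1.32, and the mitochondrial ribosomal protein genes had -0.81 and -0.79. At 6 hours 39 of 68 core genes with enough midpoints were at least 2-fold higher at the end than at the promoter, against 4.74% of all genes, and at 3 hours 16 of 43, against 4.05%. In HA-Macro ES cells at 3 hours the core genes had -0.53, near the -0.52 of the other genes. Of the core genes, 1 of 69 was at least 2-fold higher at the end, against 4.13% of all genes. At 6 hours the core genes had -0.61 (-0.74 to -0.48) against -0.45 for the other genes, with 0 of 58 against 4.63%. At 12 hours it was 0 of 34 against 7.11%. For anti-MacroH2A2 in ES cells it was 0 of 7 against 5.32%, and without Dox 0 of 9 against 4.8%. The 19 translation genes with a pyrimidine tract had 0.85 at 6 hours (0.68 to 1.02), and 8 of 18 were at least 2-fold higher at the end. Where no other protein-coding gene started within 2 kb of the end, the ratio over the 63 members left was 0.87 (0.78 to 0.96), against 1.02 over the 76 members longer than 1200 bp.

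**Figure D5:**
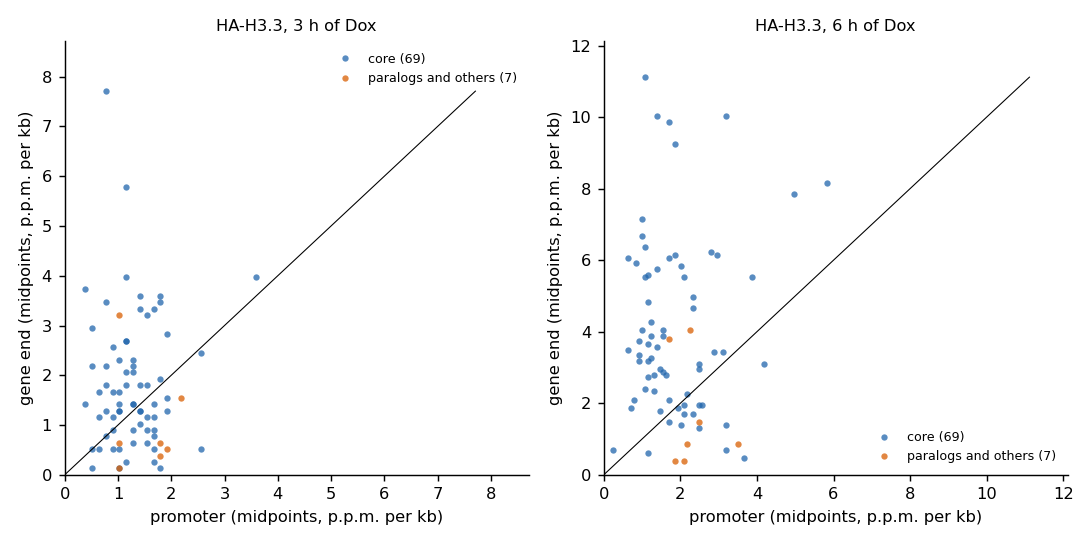
HA-H3.3 at the gene end (y axis) against the promoter (x axis), both midpoints, p.p.m. per kb, 1 point per gene, for 69 core genes and 7 other members longer than 1200 bp at 3 and 6 hours of Dox; the line marks equal levels. At 6 hours 39 of the 68 core genes with enough midpoints lay at least 2-fold above the line.

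The genes with the most HA-H3.3 at the end at 6 hours were chosen after their values were seen. Rps18, of the small subunit head, held 9.25 p.p.m. at its end at 3 hours and 13.3 at 6 hours, whereas the HA-Macro libraries held 0.438 to 1.78 there and the anti-MacroH2A2 libraries 0.936 in ES cells and 0.134 in MEFs. Its annotated start lies over 200 bp from that of its transcript 001. Its end was 10.2-fold above its promoter at 6 hours (log2 3.35, 2.56 to 4.26). Rps19 held 6.94 and 12.0 p.p.m. (2.84, 2.13 to 3.64). Rpl30 was at the other end of the range, with 0.617 and 0.560 p.p.m. at the end and 3.08 and 4.38 at the promoter (-2.97, -4.49 to -1.74). The paralogs Rpl22l1, Rpl39l, Rps27l and Rpl36al also held less at the end than at the promoter at 6 hours, at -2.43, -2.26, -2.03 and -1.35. The paralogs Rpl7l1 and Rpl3l held more at the end, at 1.16 (0.40 to 1.95) and 0.84 (0.16 to 1.55).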

How the data were processed

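Crosslinked chromatin was sonicated, immunoprecipitated with antibodies to HA or MacroH2A2 and sequenced in 11 libraries. By the study's description, reads were collapsed by sequence with their occurrences kept. They were mapped to mm9 with Bowtie 1.0 (as the submitters' processing notes name it) and extended. A read that matched in several places was given 1 of these, drawn at random. The deposited files list the start and end of each extended read, with no count, strand or score. Midpoints were counted within 600 bp of the TSS and TES, in gene bodies of genes longer than 1200 bp, and from 4 to 2 kb upstream, and scaled to all intervals on the nuclear chromosomes. Pooled ratios have exact 95% intervals from the binomial distribution of midpoints between both libraries. A gene was called with at least 20 midpoints over both libraries and a 2-fold difference in the ratio after adding 1 read to each library, for members and for all genes alike. Python 3.11.15, NumPy 2.4.6, SciPy 1.17.1 and Matplotlib 3.10.9 were used, and the counting was tested on simulated data. Libraries held 6488112 to 20541627 intervals.

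Genes named are Rpl8, Rpl32, Rpsa, Rplp0, Rplp1, Rplp2, the paralogs, the 3 highest and 3 lowest members with at least 20 midpoints in each main promoter comparison, the 5 with the most HA-H3.3 at 3 hours and the 3 with the most signal without Dox, beside those said to be chosen after their values were seen. Members and lists were chosen with earlier results of these data known. Some genes and sequences that these rules name are not reported here.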

Additional observations from a re-analysis of the deposited data

How the results depend on the processing

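With 1 library per condition, differences between libraries and between conditions cannot be told apart. No paired analysis was possible because every condition has 1 library and the labels give no replicate numbers. Over 9 results pooled over the members and 90 alternatives, 89 had the sign of the main value, and 72 moved by no more than the counting interval. The alternatives for the 2 results on HA-H3.3 at gene ends, and those without members in tiles of high signal, were chosen after seeing the data.

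With the 6 hour libraries in place of the 3 hour ones, the ratio of HA-H3.3 over HA-Macro at the promoter went from -0.29 to 0.92. The ratios of HA-Macro at 12 over 6 hours were -0.42 at the promoter in ES cells (-1.13 over 3 hours), -0.22 in MEFs (-0.36), -0.30 in the body (-1.19) and -0.36 at the end (-1.32). With core genes alone, the promoter ratios were -1.57 for HA-Macro in ES cells, -0.63 in MEFs and -1.16 for anti-MacroH2A2 (-0.82 over all members), and HA-H3.3 at the end over the promoter was 1.13 (1.02). The median over members after adding 1 read was -1.04 for the ES promoter, 0.27 for HA-H3.3 at 6 over 3 hours (0.51) and -1.38 for the body. A window of 1000 bp gave -1.04 for the ES promoter, and 1 of 300 bp gave -0.16 for HA-H3.3 over HA-Macro. The ends of transcript 001 gave -1.34 for the body and 1.13 for HA-H3.3 at the end over the promoter. The body without exons had -1.10. Without members near another coding start, HA-H3.3 at the end over the promoter was 0.87. With no read added before calling, which was also chosen after seeing the data, 25 of 30 counts of members stayed within 1.5 times. The others went from 10 to 16 (HA-H3.3 at the promoter, higher at 6 than at 3 hours), from 7 to 12 (HA-H3.3 lower than HA-Macro at 3 hours), from 4 to 7 (HA-Macro at 12 hours over no Dox), and from 0 to 1 and 1 to 2 (HA-Macro higher at the end than at the promoter, at 6 and 12 hours). The cause of the other shifts was not tested.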
